A study of Mus musculus with 2 samples.

Results

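The genes that mark endothelial cells, and those that endothelial cells switch on when vessels are remodelled, were examined in mouse hearts 3 days after myocardial infarction. The set held 40 genes of the 18193 that the array could name, taken as every probe set annotated with only that gene's symbol, and 69 of the 45101 probe sets on the array belonged to them. The 2 groups were sham and infarct. Both came from C57BL/6J male mice, 10 weeks old, whose coronary artery (the left anterior descending branch) was tied permanently in the infarct group, while the sham group had the operation without the tie. Each group was a pool of heart RNA from 3 mice, hybridised to 1 array, so that 2 arrays were compared and no replicate existed. Nothing could therefore be tested between the groups, the variation between mice is unknown, and every value below is 1 infarct pool set against 1 sham pool. Infarcted and remote muscle were not told apart by the labels. Values are on the log2 scale and differences are infarct minus sham, so that a difference of 1 is a change of 2-fold.

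Endothelial cells line all vessels. Junction proteins such as VE-cadherin and claudin-5 hold them together, and ETS and SOXF transcription factors maintain their identity. Angiopoietin-1, made mainly by the cells around the vessel, acts on the endothelial receptor TIE2 to keep vessels quiet, and angiopoietin-2, released by the endothelium itself, can oppose it. When tissue lacks oxygen, some endothelial cells become tip cells, which lead new sprouts and express genes such as Esm1 and Apln, whereas Notch signalling through DLL4 holds their neighbours back. Lymphatic endothelium depends on the transcription factor PROX1, and cardiomyocytes express Prox1 as well.

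The arrays had medians of 6.36 (sham) and 6.35 (infarct), and 11961 genes were compared because their brightest probe set reached the median on at least 1 array. All 40 endothelial genes met this rule. Only Esm1 was dimmer than the median in the sham pool, and only Prox1 in the infarct pool. Where a gene had several bright probe sets, their differences scattered with an SD of 0.23 (5190 genes) or 0.22 (15 endothelial genes), which measures the probes and not the mice. The zero of the scale was uncertain. Housekeeping genes (9 compared) lay 0.36 higher in the infarct pool on average, with single genes from -0.44 to 1.12 (Gusb). This average took only the brightest probe set of each gene, and the 2 bright probe sets of Actb gave 0.82 and -0.62. Other choices of housekeeping genes or of their probe sets were not tested. In contrast, 18 probe sets for added hybridisation controls lay 0.32 lower. Centring on the housekeeping genes subtracts 0.36 from every difference, and centring on the hybridisation controls adds 0.32. Heart muscle was present in both pools, as all 10 cardiomyocyte markers lay between 12.6 and 14.9.

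As deposited, most of the endothelial genes had a somewhat higher value in the infarct pool. Their median difference was 0.25, while the median of all genes compared was 0.00. Of the 40 genes, 31 (77.5%) lay above 0, compared with 49.5% of all genes. Just 3 genes (7.5%) were at least 2-fold higher, against 3.73% of all genes, and 1 (2.5%) was at least 2-fold lower, against 1.26%. At a difference of 0.5 (1.41-fold), 11 genes (27.5%) were higher and 3 (7.5%) were lower, against 12.7% and 8.72% of all genes. The middle of the set thus stood above the middle of all genes, with a lower quartile of 0.05 and an upper quartile of 0.58, and counts as small as 3 and 1 lie within 2 genes of what the background share gives for a set of this size. Leaving out 10 genes that other heart cells are also known to express gave the same median of 0.25, with 25 of 30 above 0. The 10 were chosen by hand, and whether the other 30 are expressed outside endothelium was not tested. The median of the 40 was -0.11 after centring on the housekeeping genes and 0.57 after centring on the hybridisation controls, while that of all genes moved by the same constants to -0.36 and 0.32. The sign of 22 genes turned under at least 1 scaling, 14 genes were higher under all 6 and 4 were lower under all 6. With the housekeeping genes as zero, 14 of the 40 lay above 0, compared with 2272 of all 11961 genes. With the hybridisation controls as zero, these numbers were 36 and 9801.

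**Figure D1:**
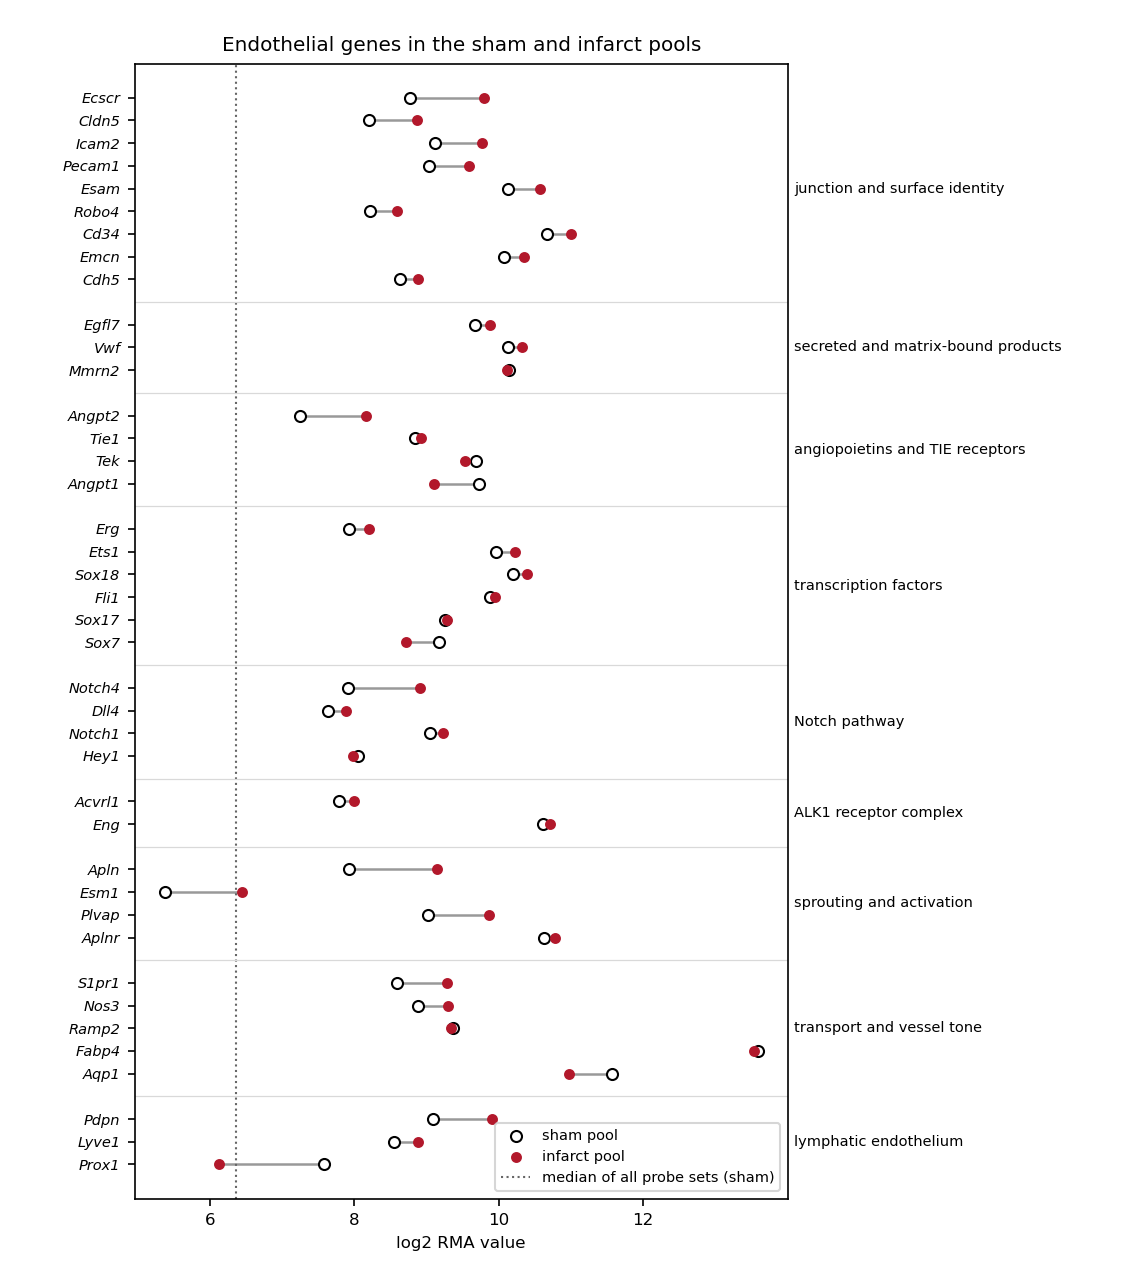
Log2 values of the 40 endothelial genes at their brightest probe set for the sham (open circles) and infarct (red) arrays, grouped by role on the vertical axis, with the median of all probe sets in the sham pool as a dotted line. Apln, Esm1 and Ecscr moved up by more than 1, and Prox1 moved down (-1.45) to below the dotted line. No gene of the transcription factor group moved by as much as 0.5.

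In bulk tissue, a change in the number of endothelial cells and a change in mRNA per cell cannot be told apart, and some of these genes are made by other cells. Leukocyte markers lay further above 0 than the set. Their median was 1.08, and all 12 were higher (11 once housekeeping genes set the zero). Their linear values summed to 17688 (sham) and 29476 (infarct). Of the 12 markers, Lcp1 (1.44), Coro1a (1.26), Cd68 (1.24), Itgam (1.22), Itgb2 (1.13), Cd52 (1.12) and Laptm5 (1.05) were at least 2-fold higher. The 4 bright probe sets of Laptm5 ran from -0.29 to 1.05. None of the markers was below the array median, with the lowest sham value at 7.59 (Itgam). Leukocytes express Pecam1, Fli1 and Ets1 too. The part of leukocytes in these values was not tested.

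Genes of cell junctions and the endothelial surface lay on the same side of 0 as deposited, with a median of 0.44 and all 9 above 0 (6 of them once housekeeping genes set the zero). With that zero, 2272 of all 11961 genes compared lay above 0. Ecscr, which encodes an endothelial surface protein that regulates chemotaxis and apoptosis, had 8.77 (sham) and 9.79 (infarct), a difference of 1.03 (2.03-fold). Cldn5, the tight junction claudin of endothelium, had 8.20 and 8.87 (difference 0.67). Icam2, an adhesion molecule bound by leukocyte integrins, had 9.12 and 9.76 (0.65). These 3 genes stayed above 0 under every scaling, as did Pecam1, the gene of the junctional protein PECAM-1, with 9.04 and 9.59 (0.56). Esam, another junctional adhesion molecule, differed by 0.44 (10.13 and 10.57). Robo4, an endothelial guidance receptor, differed by 0.38 (8.22 and 8.60) and by only 0.02 after centring on the housekeeping genes. By contrast, Cdh5, which encodes VE-cadherin, had the smallest difference of the group, 0.24 (8.63 and 8.88), and its other, dim probe set gave 0.13. The sialomucin genes Cd34 (10.66 and 11.01, difference 0.34) and Emcn (10.07 and 10.36, difference 0.29) lay close to it. Cdh5, Cd34 and Emcn fell below 0 after centring on the housekeeping genes. Within the group, Cldn5 gained 0.43 more than Cdh5, a gap that no centring can change. All but Cdh5 had 1 probe set each, so that the probes offered no second reading of them.

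Products secreted by endothelium or bound to its matrix differed little. Vwf, the gene of the von Willebrand factor that tethers platelets, had 10.13 and 10.32 (difference 0.19). Egfl7, a secreted regulator of vessel tube formation, had 9.67 and 9.88 at its brightest probe set (0.22), and its 4 probe sets ran from 0.00 to 0.22. Mmrn2, an endothelial matrix glycoprotein, had 10.14 and 10.12 (-0.02), with 4 probe sets between -0.04 and 0.12. Differences of this size are within the disagreement between probe sets. Of 7 platelet markers on the array, 5 were compared. Their median was -0.11, from -0.36 (Gp9) up to the chemokine genes Pf4 (1.04) and Ppbp (1.83, dim in sham).

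The angiopoietin ligands moved apart while their receptors hardly moved. Angpt2 had 7.25 (sham) and 8.17 (infarct), a difference of 0.92 (1.89-fold), larger than that of 95.3% of the genes compared. Angpt1 went the other way, with 9.72 and 9.10, a difference of -0.62 (1.54-fold lower), and its other probe set gave -0.36. Relative to Angpt1, Angpt2 was therefore 1.54 higher (2.90-fold), and this contrast is the same under any centring. Angpt2 was read by 1 bright probe set only: its other probe set was dim (5.06) and identical on both arrays. Tek, which encodes TIE2, had 9.68 and 9.54 (-0.15), and its partner receptor gene Tie1 had 8.85 and 8.92 (0.07). Both were smaller than the SD between probe sets. Of 5 other genes of angiopoietin signalling compared, none differed by 2-fold. Foxo1, a transcription factor held in check by TIE2 and AKT signalling, was lowest (-0.62, 3 probe sets from -0.62 to -0.21), Dok2, the gene of a TIE2 adaptor, was highest (0.59), and Svep1 followed (0.35). The pericyte and smooth muscle markers, cells that can make Angpt1, had 5 of 10 above 0 and a median of 0.02. They went both ways. Of the pericyte genes, Abcc9 (-0.93), Kcnj8 (-0.66) and Rgs5 (-0.58) were lower, while Pdgfrb (0.32) and Cspg4 (0.14) were higher. Of the smooth muscle genes, Myh11 was lower (-0.77), while Tagln (0.80), Acta2 (0.54) and Cnn1 (0.30) were higher. The remaining gene of the list, Notch3, differed by -0.10. The part of pericytes in the value of Angpt1 was not tested.

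Sprouting and activation genes formed the group with the highest median, 0.96, and all 4 were above 0 (3 once housekeeping genes set the zero). Of all 11961 genes compared, 2272 lay above 0 with that zero. Apln, which encodes the peptide apelin, had 7.93 (sham) and 9.15 (infarct). The difference of 1.22 (2.32-fold) was the highest of all 40 genes and larger than that of 97.8% of the genes compared. Esm1, which encodes the proteoglycan endocan, had 5.38 and 6.45 (1.07, 2.10-fold). As Esm1 lay below the array median in the sham pool, the size of its change rests on a value with little signal. Plvap, the gene of the protein that forms the diaphragms of endothelial pores, had 9.02 and 9.87 (0.85). Aplnr, the receptor of apelin, moved far less, with 10.63 and 10.78 (0.15), and its second probe set gave -0.07. The ligand Apln thus gained 1.07 more than its receptor. Apln, Esm1 and Plvap were each read by 1 probe set.

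Promoters are shown for the 4 genes with the largest differences among the 17 that have a promoter entry from RefSeq matched by symbol, to place their sequence beside their values. Each promoter runs from 250 bases before to 50 after a transcription start, on the gene's strand in GRCm38.p6. Capitals mark matches on either strand to AGGAAG (a core letter string of ETS factors, CTTCCT on the other strand), TGGGAA (RBPJ, the DNA-binding partner of Notch), ACGTG (hypoxia response) and ACAATG (SOX factors). The strings do not overlap one another here.
Apln, chrX:48034804-48035103, minus strand: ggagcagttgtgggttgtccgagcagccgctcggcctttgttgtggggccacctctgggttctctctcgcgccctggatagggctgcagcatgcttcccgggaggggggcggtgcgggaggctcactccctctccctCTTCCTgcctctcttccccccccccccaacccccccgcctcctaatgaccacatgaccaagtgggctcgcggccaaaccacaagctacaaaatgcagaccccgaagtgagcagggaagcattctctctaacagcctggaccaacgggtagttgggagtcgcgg
Esm1, chr13:113209409-113209708, plus strand: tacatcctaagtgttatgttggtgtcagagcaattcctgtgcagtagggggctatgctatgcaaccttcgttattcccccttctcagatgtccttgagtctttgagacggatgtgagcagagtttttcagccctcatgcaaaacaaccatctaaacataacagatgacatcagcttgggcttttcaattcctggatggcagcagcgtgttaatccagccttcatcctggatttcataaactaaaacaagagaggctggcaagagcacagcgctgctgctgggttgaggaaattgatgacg
Notch4, chr17:34564045-34564344, plus strand: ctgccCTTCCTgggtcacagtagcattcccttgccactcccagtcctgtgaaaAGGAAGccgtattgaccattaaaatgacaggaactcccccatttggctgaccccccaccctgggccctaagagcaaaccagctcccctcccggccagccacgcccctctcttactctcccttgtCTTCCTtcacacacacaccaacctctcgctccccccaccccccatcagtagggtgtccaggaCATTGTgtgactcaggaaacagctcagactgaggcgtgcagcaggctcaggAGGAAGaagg
Prox1, chr1:190169466-190169765, minus strand: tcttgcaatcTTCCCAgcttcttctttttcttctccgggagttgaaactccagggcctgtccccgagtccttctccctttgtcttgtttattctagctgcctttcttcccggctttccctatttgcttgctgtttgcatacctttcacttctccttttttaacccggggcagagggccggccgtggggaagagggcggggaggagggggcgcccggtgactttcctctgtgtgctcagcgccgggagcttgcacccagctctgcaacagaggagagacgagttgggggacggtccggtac

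The ETS string occurred 4 times in the window of Notch4 and once in that of Apln, and Notch4 also held 1 SOX string. The Prox1 window shown held 1 RBPJ string, its other entry held none of the strings, and Esm1 held none. The 17 genes had 22 windows in all. The ETS string was in 11 of these 22 windows and in 35.4% of all 32851 windows of the same length, the RBPJ string in 5 and in 25.6%, the hypoxia string in 1 (Pdpn) and in 19.6%, and the SOX string in 2 and in 12.6%. These are counts of letters and say nothing of whether a factor binds.

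Tip cell genes outside the 40 were higher as well. Of 17 compared, 16 were above 0 under every scaling, 5 were at least 2-fold higher and none was 2-fold lower as deposited, with a median of 0.79. The 2-fold counts were 2 higher and 1 lower with the housekeeping genes as zero, and 11 higher with the hybridisation controls as zero. Of all 11961 genes compared, 446 (3.73%) were 2-fold higher and 151 (1.26%) lower as deposited. With the housekeeping genes as zero, 202 were higher and 618 lower, and 2272 lay above 0. With the hybridisation controls as zero, 962 were higher and 40 lower. The 5 tip cell genes 2-fold higher as deposited included Igfbp3, a binding protein of insulin-like growth factors (8.36 and 10.19, difference 1.84). The adhesion molecule gene Mcam (8.01 and 9.58, 1.58) and the VEGF family gene Pgf (1.34) were next. The basement membrane collagen gene Col4a1 (1.25) and the chemokine receptor gene Cxcr4 (1.06) completed the 5. Insr, the insulin receptor gene, was the exception (-0.72). Several of these genes, Col4a1 and Cxcr4 among them, are also expressed by fibroblasts or leukocytes. Of 8 fibroblast markers 4 were above 0, with a median of -0.03, Col1a1 at 0.65, Col1a2 at 0.60 and Dpt at -0.35. Probe sets of Col1a1 ran from 0.19 to 0.65 and those of Col1a2 from 0.60 to 1.07, while those of Dcn ran from -0.72 to -0.34. The part of either cell type was not tested.

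In the Notch pathway 1 receptor gene stood out. Notch4, the receptor that is largely confined to endothelium, had 7.91 (sham) and 8.91 (infarct). Its difference of 0.9996 lay just under 2-fold, and it counted as 2-fold higher once the arrays were centred on their medians. Its other 2 probe sets were dim and gave 0.00 and -0.19, so that the change rests on 1 probe set. Notch1 differed by 0.18 (9.05 and 9.23) with a second probe set at 0.14, and Notch4 thus gained 0.82 more than Notch1. The ligand gene Dll4 differed by 0.26 (7.63 and 7.89) with a second probe set at 0.19. The target gene Hey1 had 8.06 and 7.99 (-0.07). Other genes of the pathway went both ways: 7 of 13 compared lay above 0, none differed by 2-fold, and the median was 0.08. Nrarp, a feedback inhibitor and target of Notch, was the highest (0.83, with another probe set at 0.40), followed by the glycosyltransferase gene Lfng (0.52), while the target gene Hes1 was the lowest (-0.42).

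The transcription factor genes of endothelial identity differed by less than 0.5 at their brightest probe sets. Their median was 0.13, and 5 of 6 were above 0 but none once housekeeping genes set the zero. That centring left 2272 of all 11961 genes compared above 0. The ETS family genes Ets1 (9.96 and 10.22, difference 0.26) and Erg (7.93 and 8.21, 0.28) lay above Fli1 (9.89 and 9.95, 0.06) at their brightest probe sets. These readings were not firm for all: the 3 bright probe sets of Ets1 ran from 0.26 to 0.36, while Erg gave -0.21 and Fli1 0.64 by a second probe set. The SOXF genes split. Sox18 had 10.20 and 10.40 (0.20) and Sox17 had 9.25 and 9.28 (0.03), whereas Sox7 had 9.17 and 8.71 (-0.46) and stayed below 0 under every scaling, with a dim second probe set at -0.15. Relative to Sox7, Sox18 was 0.66 higher. Of 18 other endothelial transcription factor genes, 8 lay above 0 (median -0.04). Foxc2, a factor of lymphatic and vein development, was 2-fold higher (1.31, dim in the sham pool), Elk3, an ETS family gene, differed by 0.72, and Tcf15, a factor of heart capillary endothelium, was lowest (-0.85).

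The receptor genes of the ALK1 complex, which reads BMP9 and BMP10 in the blood, differed little. Acvrl1, the gene of ALK1, had 7.79 and 8.00 (0.21, second probe set 0.32). Eng, its coreceptor endoglin, had 10.62 and 10.71 (0.09, second probe set -0.02). Among 17 other genes of BMP signalling compared, 9 lay above 0 and the median was 0.00. Bmp2 was the only one at least 2-fold different, with 6.40 (sham) and 7.95 (infarct), a difference of 1.55, and Bmper, a secreted regulator of BMP, followed (0.68). Id2, a target gene, differed by 0.46. The VEGF receptor genes were likewise close to 0, with Kdr at -0.14 and Flt1 at -0.26 (4 probe sets from -0.26 to -0.04), and Nrp2, a coreceptor gene, was the highest of the 5 (0.57, with another probe set at -0.18).

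**Figure D2:**
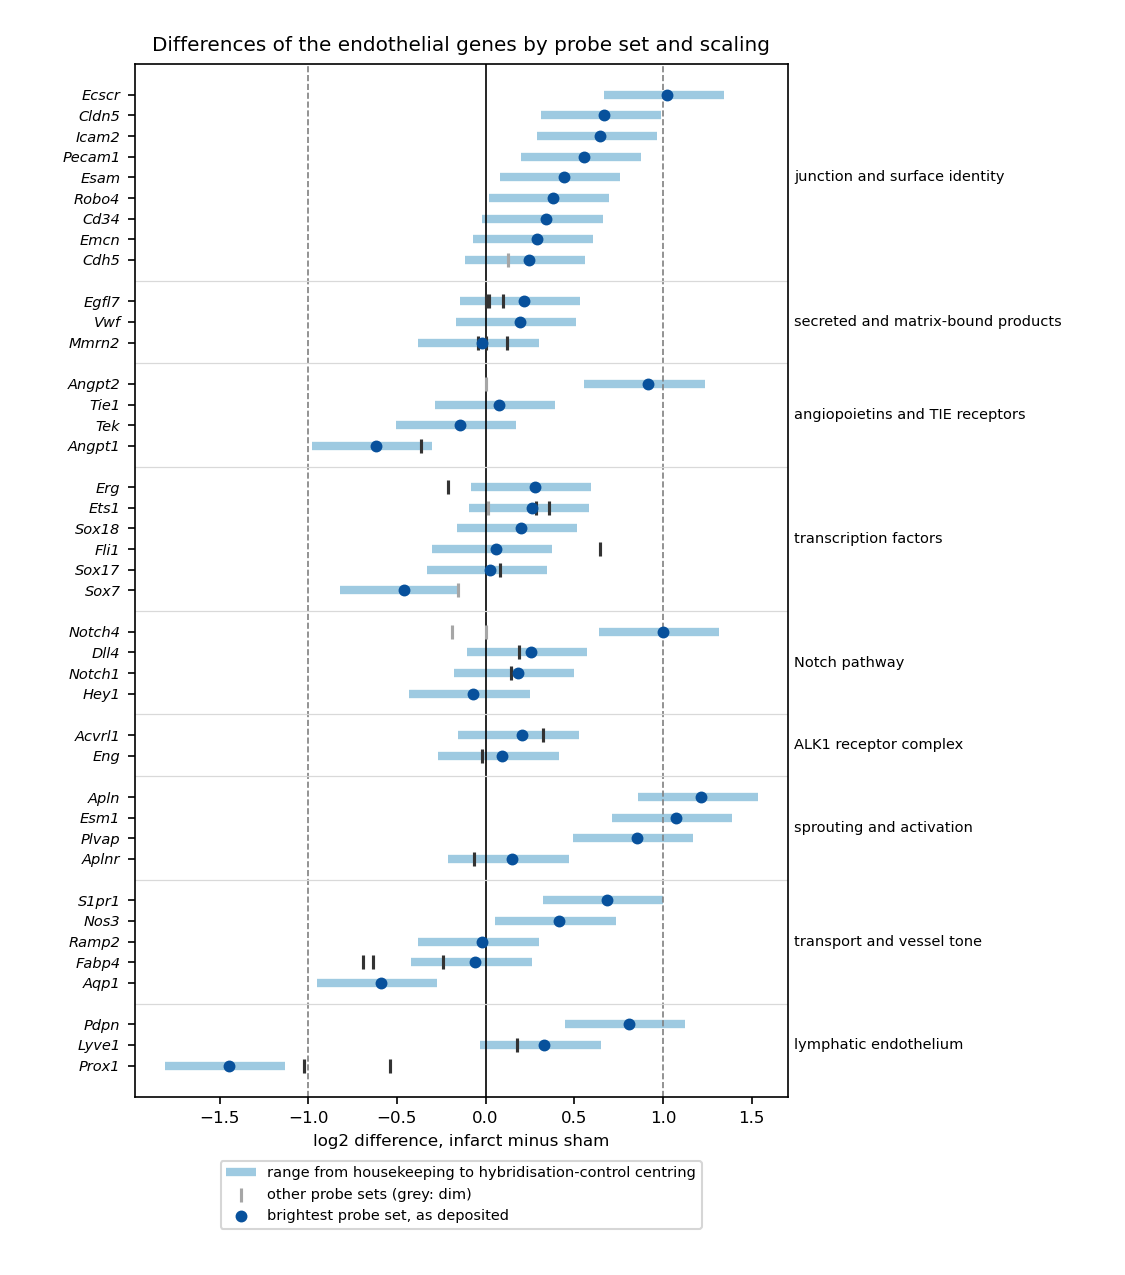
Log2 differences (infarct minus sham, horizontal axis) of the 40 genes by role: dots are the brightest probe set as deposited, ticks the other probe sets (grey where dim), and blue bars run from centring on the housekeeping genes to centring on the hybridisation controls. The bars of 18 genes stay on one side of 0: 14 above, among them Apln, Ecscr and Angpt2, and 4 below (Prox1, Angpt1, Aqp1 and Sox7). Of all 11961 genes compared (not shown), 2272 lie above 0 at the housekeeping end and 9801 at the hybridisation control end. The dashed lines mark 2-fold.

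Genes of transport and vessel tone went both ways (2 of 5 above 0, median -0.02). S1pr1, a receptor of sphingosine 1-phosphate that stabilises junctions, had 8.60 and 9.28 (0.69). Nos3, the endothelial nitric oxide synthase gene, had 8.89 and 9.30 (0.41). Aqp1, the water channel gene of capillary endothelium and red cells, was lower, with 11.56 and 10.97 (-0.59, 1.51-fold lower), and remained below 0 under every scaling. Relative to Aqp1, Plvap was 1.44 higher. Ramp2, the coreceptor gene of adrenomedullin signalling, had 9.36 and 9.34 (-0.02), and 2 further probe sets that Ramp2 shares with its neighbour Vps25 were left out. Around these receptors, 8 of 12 genes of adrenomedullin, apelin and sphingosine 1-phosphate signalling lay above 0 (median 0.23). Sphk1, a kinase that makes sphingosine 1-phosphate, was 2-fold higher (1.23, dim in the sham pool), Adm, the gene of adrenomedullin, differed by 0.62, and Ramp1 was lowest (-0.58).

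Fabp4, a fatty acid binding protein of capillary endothelium and adipocytes, depended on the probe set. Its brightest probe set had 13.59 and 13.53 (-0.06), and the other probe sets gave -0.24, -0.69 and -0.63. The mean over all 4 was -0.41. Other genes of capillary fatty acid and lipid handling had a median of -0.17 over 9 compared, with 4 above 0. Aqp7, a glycerol channel gene, was 2-fold lower (-1.86, dim in the infarct pool), the lipase gene Lipe differed by -0.64, and Fabp5 was higher (0.92). Of 5 adipocyte markers on the array, 3 were compared. The differences were -1.52 for Adipoq (7.43 and 5.91, dim in the infarct pool), -0.61 for Plin4 and -0.14 for Retn. The value of Retn was smaller than the SD between probe sets, and lay above 0 with the hybridisation controls as zero. Lep and Cidec were dim on both arrays. The part of fat tissue in the values of Fabp4 was not tested.

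The 3 genes listed for lymphatic endothelium did not move together. Prox1 had 7.58 (sham) and 6.13 (infarct), a difference of -1.45 (2.73-fold lower), and only 0.25% of the genes compared lay lower. As Prox1 lay below the array median in the infarct pool, the size of this difference, and of those set against it, rests on a value with little signal. All 3 of its probe sets were lower, by -1.45, -1.02 and -0.54, and their mean was -1.0. Pdpn, which encodes podoplanin, was higher instead, with 9.10 and 9.91 (0.81), and Lyve1, a hyaluronan receptor gene, had 8.55 and 8.88 (0.33, second probe set 0.18). Relative to Prox1, Pdpn was 2.26 higher (4.79-fold) and Lyve1 1.78 higher. Of 8 other lymphatic genes compared 6 lay above 0, with a median of 0.17. The highest was Foxc2, followed by Nrp2, and Mmrn1 was lowest (-0.50). Reln was the other gene below 0 (-0.38). The receptor gene Flt4 differed by 0.19 (second probe set -0.02) and the ligand gene Vegfc by 0.13 (3 probe sets from 0.13 to 0.39).

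All 3 of these genes have other sources in the heart, whose markers were also read. Cardiomyocytes express Prox1, and the 10 cardiomyocyte markers had a median of -0.11, from -0.39 (Ryr2), -0.38 (Tnni3) and -0.21 (Pln) to 0.11 (Tnnc1) at their brightest probe sets, with a summed linear value of 213298 (sham) and 199664 (infarct). Other bright probe sets of these genes lay lower, reaching -0.85 for Ttn, -0.67 for Myh6, -0.66 for Ryr2 and -0.60 for Tnnt2. The brightest probe sets of Actc1, Myh6 and Myl2 lay close to the highest value on the arrays (14.9). Whether signals this bright still follow the amount of mRNA was not tested. Resident macrophages express Lyve1, and 5 of 6 compared markers of them lay above 0 (median 0.18), led by Mrc1 (0.44), F13a1 (0.38) and Mertk (0.31). Mesothelium expresses Pdpn, as do activated fibroblasts and macrophages. The 7 mesothelial markers were all lower (6 with the hybridisation controls as zero; median -0.97), with Upk3b (-1.33), Bnc1 (-1.20, dim in the infarct pool) and Lrrn4 (-1.13) at least 2-fold lower, while Pdpn went the other way. Which cells carried the differences of Prox1, Pdpn and Lyve1 was not tested.

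**Figure D3:**
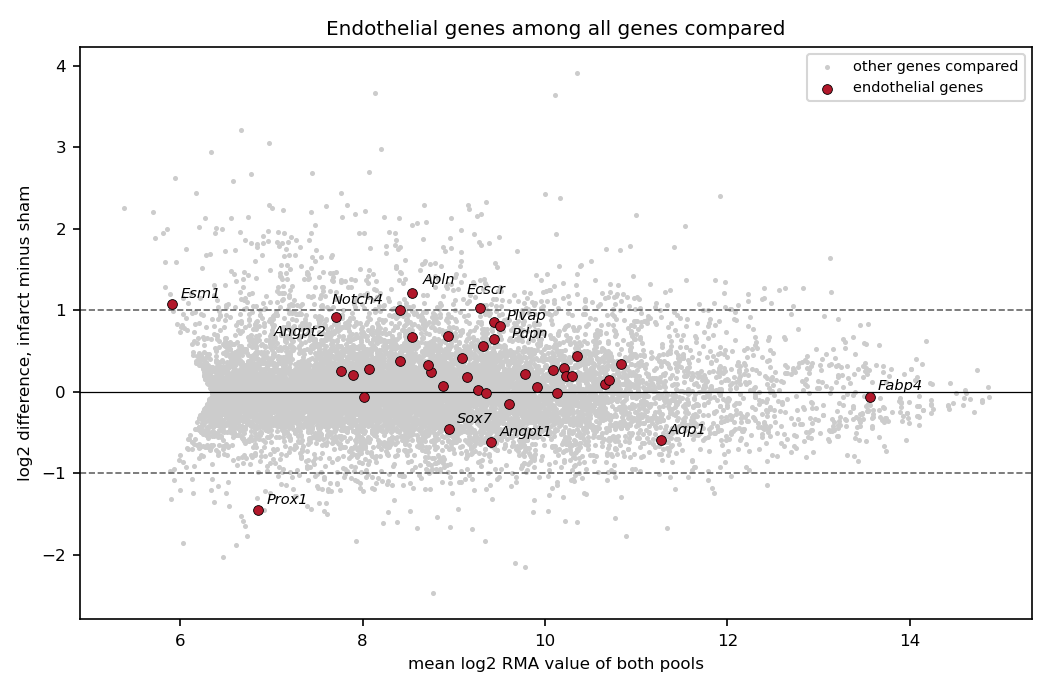
Log2 difference (infarct minus sham) against the mean log2 value of both pools for 11961 genes in grey, with the 40 endothelial genes in red and dashed lines at 2-fold. Of the 40 red points 31 lie above 0, Apln lies highest (1.22) and Prox1 lowest (-1.45), and Esm1 sits at the dim end.

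A wider list of endothelial genes lay lower than the 40. Of 29 other pan-endothelial genes on the array 27 were compared, and 11 of these (40.7%) lay above 0, with a median of -0.12 (0.20 with the hybridisation controls as zero). This was below the median of the 40 genes (0.25) and below that of all genes (0.00). The 2 lists have no gene in common, and both were chosen with earlier results of these arrays known. At 2-fold, Procr, the gene of the endothelial protein C receptor, was higher (6.97 and 8.44, 1.47), and no gene was lower. Cd93, a receptor of endothelium and myeloid cells, was next (10.82 and 11.74, 0.92, with 3 probe sets from 0.49 to 1.02). The lowest was Cyyr1 (-0.67), followed by Ushbp1 (-0.54) and the junction gene Jam2 (-0.50, 4 probe sets from -0.60 to -0.02). Of 3 compared markers of the endocardium, the endothelium of the heart chambers, Npr3 differed by -0.68, Nfatc1 by -0.03 (3 probe sets from -0.03 to 0.59) and Cgnl1 by -0.01.

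**Figure D4:**
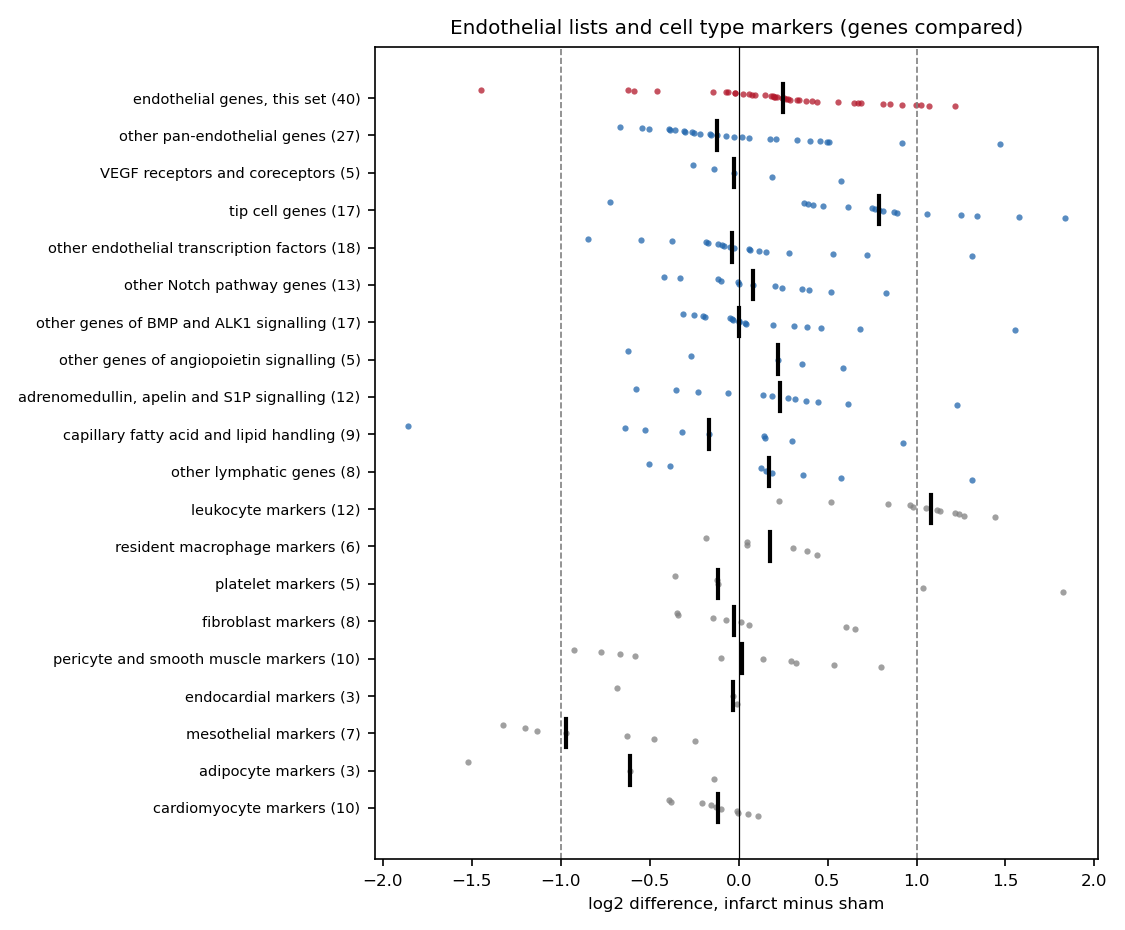
Log2 differences (infarct minus sham, horizontal axis) of the 40 endothelial genes (red), of other endothelial lists (blue) and of markers of other cell types (grey), 1 point per gene compared (number in parentheses), with the median of each list as a black bar and dashed lines at 2-fold. The medians of leukocyte markers (1.08) and tip cell genes (0.79) lie highest, that of the 40 genes lies at 0.25, and those of other pan-endothelial genes (-0.12) and mesothelial markers (-0.97) lie below 0.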

How the data were processed

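Expression was measured with GeneChip Mouse Genome arrays, 1 per pool. The deposited values are on the log2 scale and were made by the authors with RMA, which corrects the background, normalises the arrays against each other and summarises each probe set. The program and its version: not given in the sources used here. RMA gives both arrays nearly the same distribution, so a change in total mRNA cannot be seen. Names came from the platform's annotation, in which 34945 probe sets had 1 symbol, 932 several, 9160 none, and 64 were controls. All 40 genes matched RefSeq (GRCm38.p6) by Entrez identifier.

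Each gene's value is that of its brightest probe set over both arrays. With 1 array per group no test was run, and lists are described by counts and medians beside those of all genes compared. Having 2 arrays is what limits precision. The genes and lists were chosen with earlier results of these data known. The rule for named genes took all 40 and, of each other list, the 3 compared genes with the largest absolute difference and every gene at least 2-fold different. Genes beyond the rule were named after their values were seen. Alternatives were scaling (6 kinds: medians, quantiles, loess with a span of 0.4, housekeeping genes, hybridisation controls and 24 poly-A control probe sets), the choice of probe sets, the filter on dim ones (none, or the 75th percentile), the threshold (0.5), the mean, and leaving out genes of other cells. The code was run on simulated data, with shifts larger than the 2-fold threshold put on bright genes. The simulated noise was smaller than the SD between probe sets. This run checks the code only and does not bear on the differences reported here. Python 3.11.15 was used with numpy 2.4.6, pandas 2.3.3, statsmodels 0.14.6 and matplotlib 3.10.9.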

Additional observations from a re-analysis of the deposited data

How the results depend on the processing

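No array could be left out and no paired analysis was possible because each group had 1 array. Centring on the housekeeping genes moved the median of the 40 genes from 0.25 to -0.11 and the count of 2-fold higher genes from 3 to 0. Over all genes, it moved 446 higher and 151 lower to 202 and 618. Centring on the hybridisation controls gave a median of 0.57 and 8 higher genes of the 40, and 962 higher and 40 lower over all genes. The share of higher genes among all 2-fold different ones was 74.7%, 24.6% and 96% in these settings. These shifts follow from the constants subtracted. With the 75th percentile as the filter, no gene of the 40 remained 2-fold lower (0), as Prox1 was then not compared. At a threshold of 0.5 the counts were 11 and 3 of the 40, and 1518 and 1043 of all genes. The remaining settings left the median between 0.19 and 0.28 and the 2-fold higher genes between 2 and 4. Of 389 values of single genes under the alternatives, 85 moved by more than the SD between probe sets, 80 of them under those centrings. The rest concerned Fabp4 (-0.69 without probe sets that can bind several transcripts) and, when probe sets were averaged, Fabp4 (-0.41), Erg (0.03), Fli1 (0.35) and Prox1 (-1.0). No gene at least 2-fold different changed sign.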
